A study of Mus musculus with 2 samples.

Results

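The transcripts of 10 cytokine receptor genes of natural killer (NK) cells were followed through single-cell 3' RNA sequencing of mouse spleen. The genes, chosen by symbol from the 32285 in the files, were Il2rb, Il2rg, Il7r, Il21r, Il12rb1, Il12rb2, Il18r1, Il18rap, Kit and Ifngr1, and each had 1 matching row. Splenic cells sorted as NK cells by flow cytometry gave 2 libraries, 1 for control animals and 1 for animals on dietary restriction (DR). Strain, age, sex, the number of mice, pooling, the degree and length of the restriction and the sorting gate were not given in the sources used here. With 1 library per group no test between conditions was possible, so every comparison is between these libraries, and all intervals are 95% intervals that cover counting error only.

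Cytokine receptors of NK cells fall into a few families. The common gamma chain, encoded by Il2rg, pairs with the Il2rb chain in the receptor for interleukin-2 and interleukin-15, with the Il7r chain in the receptor for interleukin-7, and with the Il21r chain in the receptor for interleukin-21. Interleukin-15 acting through Il2rb keeps mature NK cells alive, and Il7r is a textbook marker of type 1 innate lymphoid cells (ILC1) and of T cells. Il12rb1 and Il12rb2 form the interleukin-12 receptor, and Il18r1 and Il18rap the interleukin-18 receptor; both cytokines drive interferon-gamma release. Kit is the receptor tyrosine kinase for stem cell factor, and Ifngr1 is the ligand-binding chain of the interferon-gamma receptor. Mouse NK cells are commonly staged by the surface proteins CD27 and CD11b (encoded by Itgam), from CD27 alone through both to CD11b alone.

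The start-site windows of 4 of these genes are shown. Il7r and Kit were chosen because both were lower in the stages with Itgam than in that with Cd27 only. The interleukin-18 receptor chains were chosen because they are encoded side by side but differed between the libraries. In the mm10 build with the GENCODE M21 annotation, Il7r lies at chr15:9505788-9530176 on the minus strand and Kit at chr5:75574916-75656722 on the plus strand. Il18r1 (chr1:40465552-40500854) and Il18rap (chr1:40515362-40551705) lie on the plus strand with 14508 bases between them. Each window runs from 250 bases before to 50 bases after a RefSeq start (GRCm38.p6, 300 bases, 5′ to 3′), and for genes with several starts the first listed is shown. The windows are chr15:9529827-9530126 on the minus strand for Il7r, chr5:75574737-75575036 for Kit, chr1:40465302-40465601 for Il18r1 and chr1:40515112-40515411 for Il18rap. Capitals mark matches, on either strand, to TGTGGT (RUNX), TCACAC (T-box), GGAAGT (ETS) or GTAAACA (forkhead).
Il7r: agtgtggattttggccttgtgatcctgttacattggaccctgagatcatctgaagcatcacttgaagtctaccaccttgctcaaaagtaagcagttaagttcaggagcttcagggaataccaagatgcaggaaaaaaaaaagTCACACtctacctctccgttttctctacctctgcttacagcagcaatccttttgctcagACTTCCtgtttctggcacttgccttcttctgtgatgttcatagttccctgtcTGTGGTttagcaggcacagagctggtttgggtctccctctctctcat
Kit: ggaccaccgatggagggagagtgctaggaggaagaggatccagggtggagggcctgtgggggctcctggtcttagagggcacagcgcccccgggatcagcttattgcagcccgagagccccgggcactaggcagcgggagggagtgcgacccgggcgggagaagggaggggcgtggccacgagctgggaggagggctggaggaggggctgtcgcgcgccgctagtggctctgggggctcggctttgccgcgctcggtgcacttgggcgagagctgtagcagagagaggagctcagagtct
Il18r1: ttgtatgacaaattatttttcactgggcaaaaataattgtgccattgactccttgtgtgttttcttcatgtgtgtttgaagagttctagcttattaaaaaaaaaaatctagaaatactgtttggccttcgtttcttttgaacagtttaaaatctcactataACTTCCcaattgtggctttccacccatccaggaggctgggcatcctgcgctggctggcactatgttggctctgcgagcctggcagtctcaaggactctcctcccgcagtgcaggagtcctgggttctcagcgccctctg
Il18rap: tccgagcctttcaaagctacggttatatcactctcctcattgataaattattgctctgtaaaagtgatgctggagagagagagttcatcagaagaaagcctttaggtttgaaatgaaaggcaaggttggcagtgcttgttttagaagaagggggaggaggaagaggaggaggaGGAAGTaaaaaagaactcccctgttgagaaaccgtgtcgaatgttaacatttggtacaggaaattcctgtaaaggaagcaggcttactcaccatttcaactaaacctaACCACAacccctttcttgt
The Il7r window held 1 RUNX, 1 T-box and 1 ETS match, the Il18rap window 1 RUNX and 1 ETS match, the Il18r1 window 1 ETS match, and the Kit window none of the 4 motifs. Of the Il18r1 windows not shown, chr1:40465371-40465670 held 1 RUNX and 1 ETS match and chr1:40465756-40466055 none. Among 32851 windows of this length in the table, 16.8% held the RUNX letters, 14.5% the T-box letters, 23.8% the ETS letters and 3.65% the forkhead letters, so single matches are common and are given only as a description. RefSeq windows were found for 8 of the 10 genes, not for Il2rb or Il12rb1.

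The control library held 5702 cell barcodes with 44526828 unique molecular identifiers (UMIs, each counting 1 captured transcript), and the DR library 6287 barcodes with 42134212 UMIs. Median UMIs per barcode were 7152 and 5782, and 13 barcode sequences occurred in both libraries. After filtering, 5244 control and 5756 DR cells remained. Clusters were built without the 10 receptor genes, and were named from other marker genes. The NK-like class took 90.4% of the control library (4738 cells) and 77.6% of the DR library (4465). All 8 of their NK markers were above 20 CPM (UMI counts per 1000000 UMIs) in both libraries, and Eomes, the T-box factor of NK cells, stood at 330 and 324 CPM. The other classes followed were ILC1-like cells (287 and 414), B-like cells (125 and 461) and T-like cells (289 in the DR library and 3 in the control library, too few to describe). A myeloid-like class of 1 and 19 cells was also named but is not described. These shares can be set by the sort, whose gate is unknown. Throughout, levels are CPM over all UMIs of the cells named, and paired values give control first and DR second.

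Il2rb was detected in nearly every NK-like cell, in 95.1% of control and 93.4% of DR cells, and varied little. Its gene lies at chr15:78479256-78495271 on the minus strand. NK-like cells held 732 (723 to 741) and 789 (779 to 800) CPM. Across the 4 stages, set by at least 1 UMI of Cd27 or Itgam, control cells held 805 CPM with Cd27 only, 747 with both, 700 with Itgam only and 704 with neither. The DR library gave 875, 856, 711 and 709 CPM in that order. In the control library the highest stage was the one with Cd27 only, while in the DR library its interval overlapped that of cells with both, and in both libraries the intervals of the stages with Itgam only and with neither overlapped. ILC1-like cells stood above every NK-like stage, at 943 (906 to 981) and 1055 (1019 to 1092) CPM. T-like cells held 82.6 (71.8 to 94.5) CPM, 9.56-fold below NK-like cells of the same library. B-like cells held 40.6 CPM in each library, with a UMI in 16.8% and 10.6% of cells at median depths of 8748 and 6964 UMIs. These B-like values serve as the background for transcripts that B cells should lack, with a limit given for Il7r below.

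Il2rg, the shared chain, was present in every class described. NK-like cells held 366 and 321 CPM, ILC1-like cells 538 and 422, T-like cells 269 and B-like cells 210 and 173. The 4 NK-like stages differed little, from 338 to 381 CPM in the control library and from 310 to 332 in the DR library. Il2rg (chrX:101264378-101268255) overlaps Gm20489 on the same strand, so the split of reads between them is uncertain.

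Il7r differed between the stages more than any other of the 10 genes in the control library. In the control library it stood at 87.6 CPM (80.5 to 95.1) in NK-like cells with Cd27 only, 22.1 with both, 7.58 with Itgam only and 46.4 with neither. The DR library gave 120 CPM (112 to 129), 43.7, 16.9 and 39.0. Cells with Cd27 only were 11.6-fold above those with Itgam only in the control library (log2 ratio 3.53, 3.25 to 3.82). The DR log2 ratio was 2.83 (2.57 to 3.1), against a level near that of B-like cells and so not read as a size. ILC1-like cells stood far above every NK-like stage, at 1191 (1149 to 1234) and 1157 (1120 to 1196) CPM, with an Il7r UMI in 92.3% and 94.9% of cells. T-like cells held 612 (582 to 643) CPM. The order in the control library was ILC1-like, Cd27 only, neither, both, Itgam only and B-like, with no overlap between neighbours. In the DR library the intervals overlapped for the stages with both and with neither, and for B-like cells and those with Itgam only.

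Low Il7r levels in the DR library sat close to the B-like level. B-like cells held 1 Il7r UMI (0.70 CPM) in the control library and 73 UMIs (17.3 CPM, 13.6 to 21.8) in the DR library, the latter in 2.60% of cells. With each cell thinned to 3000 UMIs, 2.76% (1.99 to 3.73) of DR cells with Itgam only held an Il7r UMI, against 1.34% (0.494 to 2.90) of B-like cells. The 73 B-like UMIs lay in 12 cells. The 6 thinned B-like cells with Il7r held Il2rb at 833 CPM (466 to 1374), against 15.9 (9.83 to 24.3) in those without. The B-like level is thus not a clean measure of background, and the source of these UMIs was not tested. The Il7r level of DR cells with Itgam only is therefore read neither as expression nor as background. The median depth was 5029 UMIs for these cells and 6964 for B-like cells. The 15.8% (13.4 to 18.3) of thinned DR cells with Cd27 only that held a UMI lay above the B-like share.

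Kit was likewise highest with Cd27 only and lowest with Itgam only in both libraries. Control cells held 113 CPM (105 to 121) with Cd27 only, 42.6 with both, 17.8 with Itgam only and 43.8 with neither, and DR cells 62.8 (57.1 to 68.9), 18.2, 4.78 and 21.1. The stage with Cd27 only was 6.34-fold above that with Itgam only in the control library (log2 ratio 2.67, 2.47 to 2.87). The DR log2 ratio was 3.71 (3.25 to 4.22), against a low level from 40 UMIs and so not read as a size. ILC1-like cells were again highest, at 153 (138 to 169) and 115 (104 to 128) CPM. Unlike Il7r, Kit was not seen in T-like cells: 0 of 2555319 UMIs, which by a floor of 3 counts allows a level of up to 1.17 CPM. B-like cells held 3 and 5 Kit UMIs, the latter 1.19 CPM. In thinned DR cells with Itgam only, 0.808% (0.418 to 1.41) held a Kit UMI, against 0.224% (0.00566 to 1.24) of B-like cells. These shares overlapped, but the levels over all UMIs did not, at 4.78 CPM (3.42 to 6.51) and 1.19 (0.385 to 2.77). Shares and levels thus differ on whether that lowest Kit level lies above the B-like one.

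**Figure D1:**
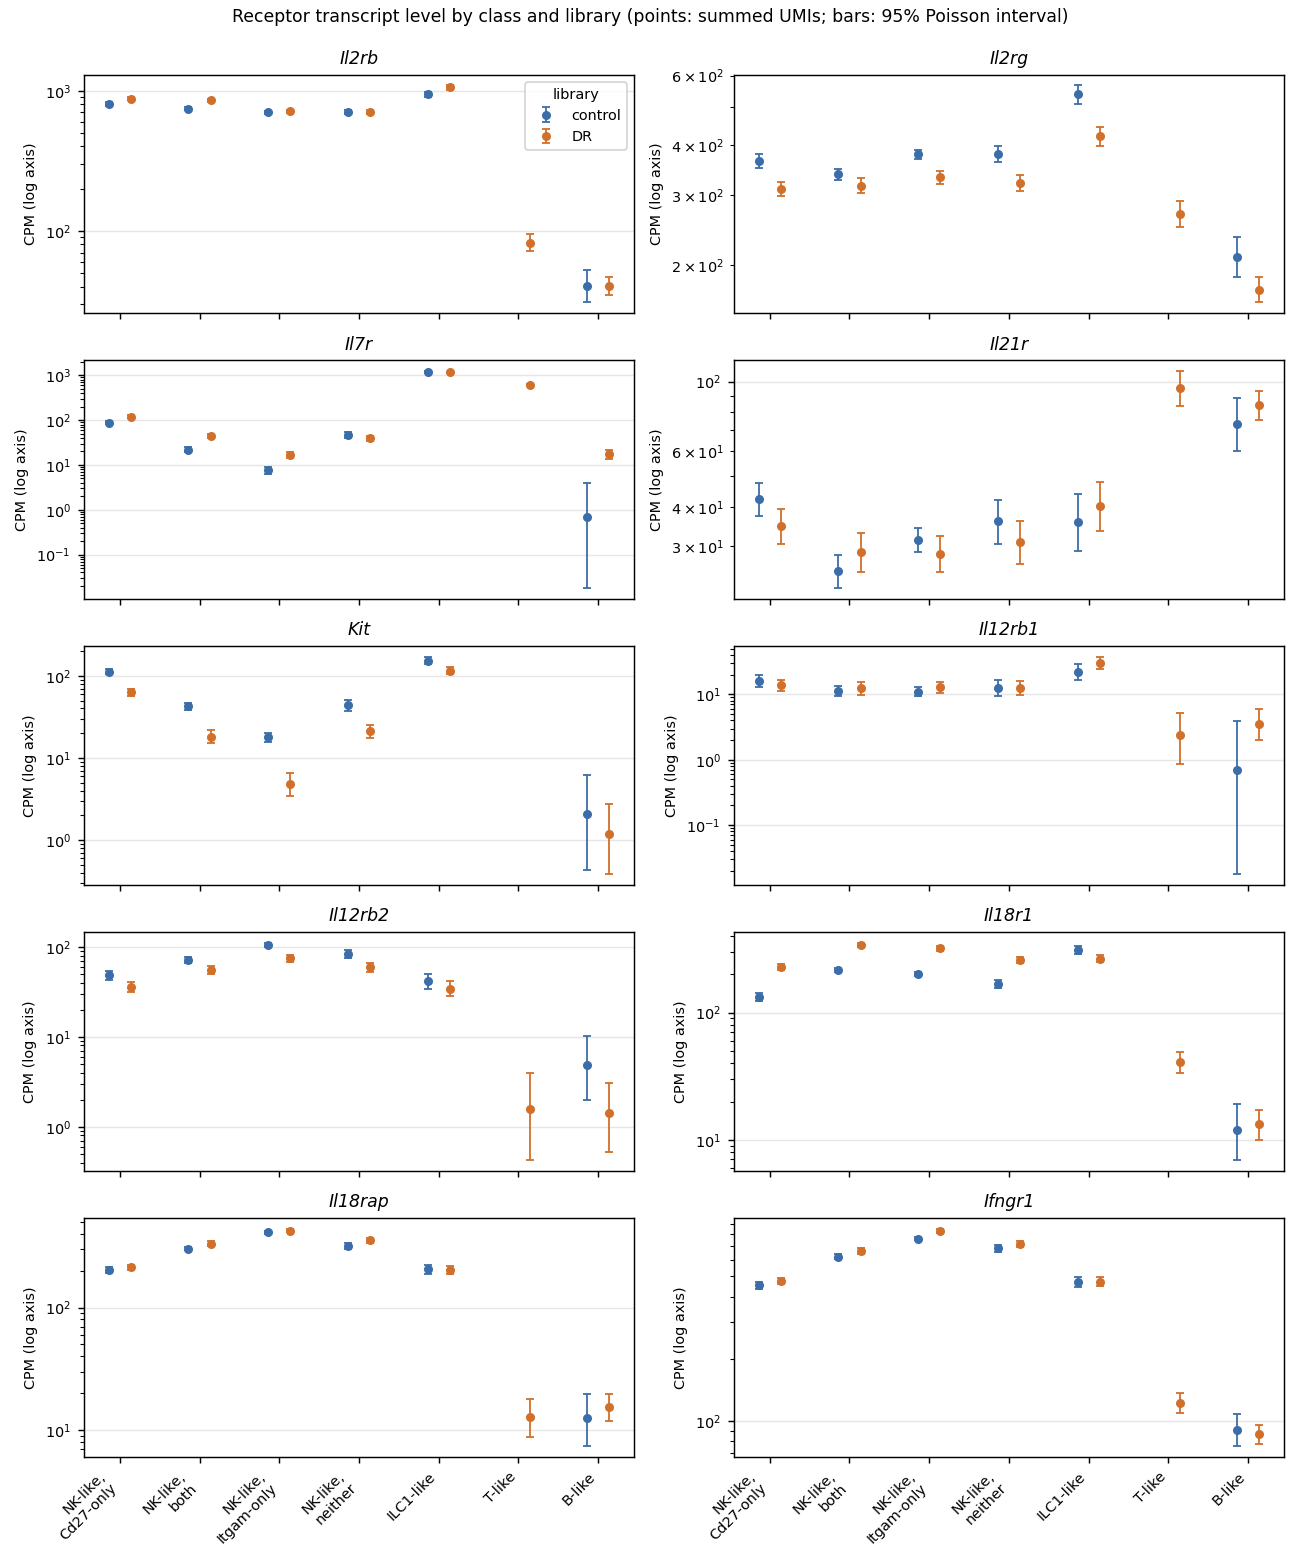
Levels of the 10 receptor genes (CPM, log axis) in the 4 NK-like stages and in ILC1-like, T-like and B-like cells; points are summed levels per library (blue control, orange DR) and bars 95% Poisson intervals, with no T-like value for the control library and the Kit value of 0 in T-like cells not drawn. Il7r and Kit are lower at each step from Cd27 only through both to Itgam only in both libraries, Il12rb2, Il18rap and Ifngr1 run the other way, and Il2rb is nearly flat across the NK-like stages.

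Set against Il2rb, ILC1-like cells stood farther above NK-like cells by Il7r than by Kit. The values are ratios of UMI counts, not of molecules, since capture can differ between genes. Per 100 Il2rb UMIs there were 4.10 (3.86 to 4.35) and 6.85 (6.50 to 7.22) Il7r UMIs in NK-like cells, 126 (120 to 133) and 110 (105 to 115) in ILC1-like cells and 741 (641 to 859) in T-like cells. ILC1-like cells therefore held about as many Il7r as Il2rb UMIs, NK-like cells far fewer and T-like cells far more. Kit stood at 6.05 and 3.29 per 100 Il2rb UMIs in NK-like cells, 16.2 and 10.9 in ILC1-like cells and 0 in T-like cells. Along the stages from Cd27 only through both to Itgam only, Il7r per 100 Il2rb UMIs ran 10.9, 2.96 and 1.08 in the control library and 13.7, 5.11 and 2.37 in the DR library. Kit ran 13.99, 5.70 and 2.54 in control and 7.17, 2.12 and 0.673 in DR cells.

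**Figure D2:**
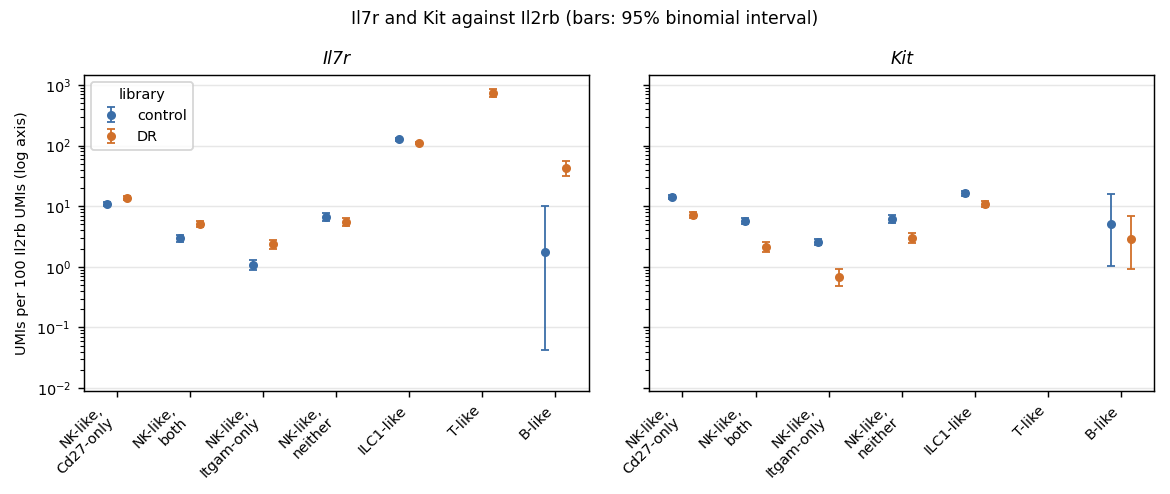
Il7r (left) and Kit (right) UMIs per 100 Il2rb UMIs (log axis) in NK-like stages and the other classes; points are libraries (blue control, orange DR) and bars 95% binomial intervals. ILC1-like cells lie near 100 for Il7r and T-like cells at 741, whereas the Kit value of T-like cells is 0 and is not drawn on the log axis.

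Over all NK-like cells, those with an Il7r transcript held Kit more often than those without. Among 4458 control cells thinned to 3000 UMIs, 199 held an Il7r UMI, 329 a Kit UMI and 53 both, so Kit was seen in 26.6% (20.6 to 33.4) of cells with Il7r and in 6.48% (5.76 to 7.26) of those without. Among 4250 thinned DR cells the counts were 273, 186 and 49, and the shares 17.9% (13.6 to 23.0) and 3.45% (2.90 to 4.06). These pooled shares mix stages and clusters. With Cd27 only, a stage that includes cells of the cluster led by Batf3, they were 36.6% (26.2 to 48.0) and 17.2% (14.1 to 20.6) in control cells. In DR cells with Cd27 only they were 26.2% (19.2 to 34.3) and 10.5% (8.39 to 12.9). Intervals were also apart for neither in both libraries, for control cells with both, and for the cluster led by Ccr2. They overlapped in the remaining stages and clusters. Within the cluster led by Batf3, described next, the shares with and without Il7r overlapped, at 44.1% (31.2 to 57.6) and 39.6% (32.0 to 47.7) in control and 45.5% (34.1 to 57.2) and 35.1% (28.0 to 42.6) in DR cells. Among DR cells with Itgam only, 0 of 41 cells with Il7r held Kit, against 0.831% of those without, with overlapping intervals. Over all NK-like cells, Il2rb levels overlapped between cells with and without Il7r. Its thinned level was 720 CPM in control cells with and 720 in control cells without Il7r, and 796 and 775 in DR cells. Among DR cells with Itgam only it was lower with Il7r, at 480 CPM (365 to 619) against 724 (699 to 750). It was also lower in the cluster led by Cx3cr1 in both libraries and in DR cells of that led by Cmah. In DR cells of the cluster led by Hist1h1b it was higher, at 519 against 135 CPM. Intervals overlapped in the remaining NK-like stages and clusters.

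An NK-like cluster led by Batf3 (a basic leucine zipper transcription factor) and Gpr55 (a lipid-sensing receptor) held the highest levels of both receptors among NK-like cells. It comprised 219 control and 252 DR cells. Il7r stood at 167 and 187 CPM there, and Kit at 222 and 158. Against all other NK-like cells the log2 ratios were 3.08 and 2.20 for Il7r and 2.84 and 3.63 for Kit. The interleukin-21 receptor was also higher there, at 73.1 and 70.8 CPM (1.34 and 1.42). Il18r1, at 43.6 and 47.7 CPM, was lower by 2.21 and 2.72 on the log2 scale, and Il18rap and Ifngr1 were lower too, at 105 and 68.4 CPM and at 246 and 177 CPM. Kit was itself among the leading genes of this cluster although it took no part in the clustering, so these levels are a description of the cluster. The cluster also led with Cd3d, a T cell receptor complex chain, at 288 and 299 CPM, while Cd3e stood at 0.38 CPM in control and was at 0 in DR cells. Ncr1, an NK receptor, stood at 1165 and 1036 CPM, and Cxcr6, an ILC1 marker, was at 0.38 CPM and at 0. Without these cells the step from Cd27 only to Itgam only was smaller but kept its direction, with log2 ratios of 2.89 and 2.37 for Il7r and 1.79 and 2.49 for Kit. For Il21r, whose log2 ratio over all NK-like cells was 0.43 and 0.29, the direction turned, to -0.23 and -0.38.

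**Figure D3:**
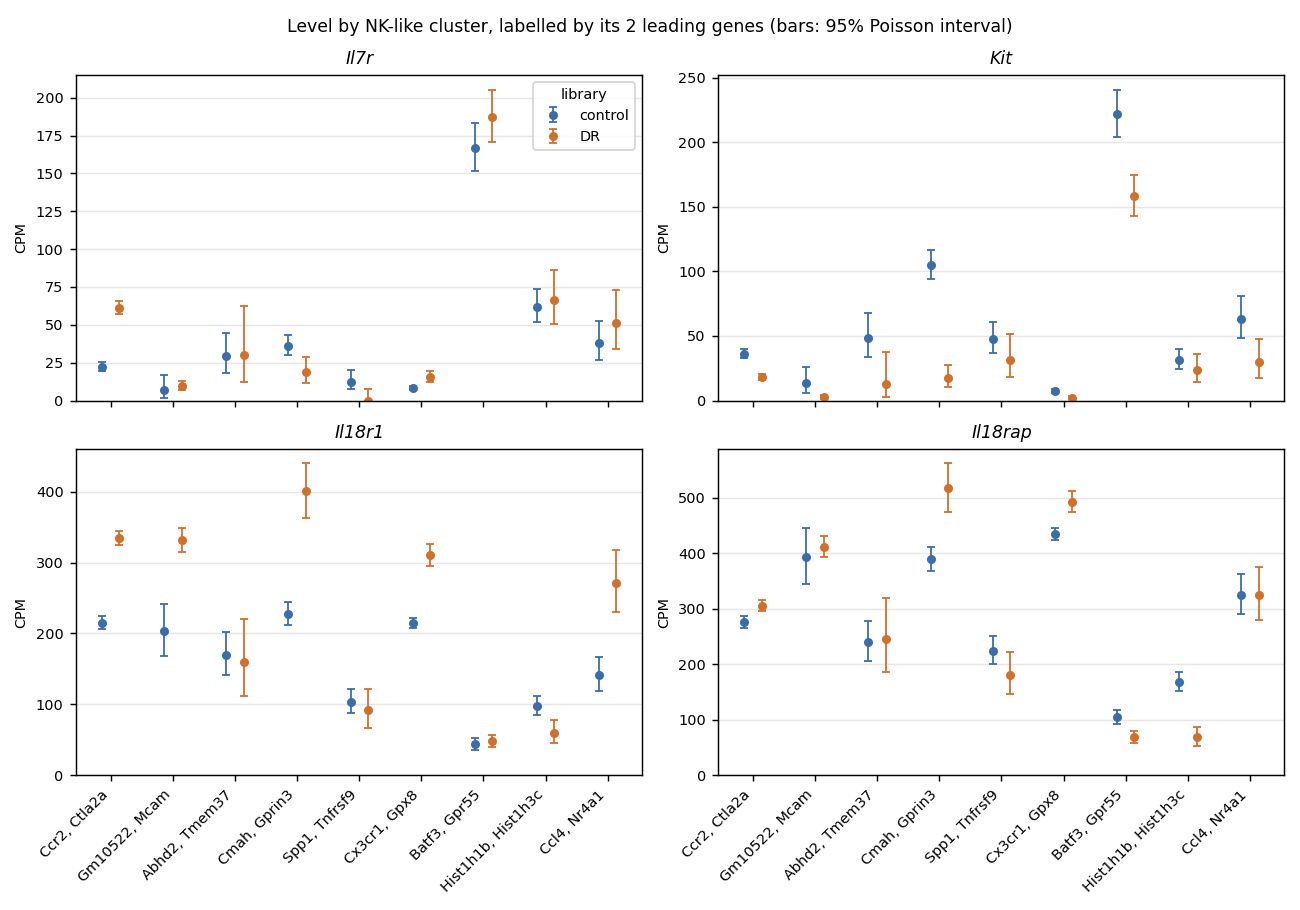
Levels of Il7r, Kit, Il18r1 and Il18rap (CPM) in the 9 NK-like clusters with at least 50 cells in each library, named by leading genes; points are libraries (blue control, orange DR) and bars 95% Poisson intervals. The cluster led by Batf3 stands out with Il7r at 167 and 187 CPM and Kit at 222 and 158 CPM, and with the lowest Il18r1.

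Il12rb2, Il18rap and Ifngr1, chains of the receptors for interleukin-12, interleukin-18 and interferon-gamma, ran against Il7r and Kit along the stages. From Cd27 only through both to Itgam only, Il12rb2 stood at 48.3, 71.0 and 105 CPM in control cells and 35.6, 55.1 and 74.3 in DR cells. Il18rap, the signalling chain of the interleukin-18 receptor, stood at 204, 302 and 408 CPM in control and 212, 331 and 423 in DR cells. Ifngr1 (chr10:19591949-19610229) stood at 453, 624 and 761 CPM in control and 474, 664 and 830 in DR cells. The stage order of these genes was the same in both libraries. Il12rb1, the other chain of the interleukin-12 receptor, did not follow it. It stood at 16.1, 11.2 and 11.0 CPM in control cells and at 13.7, 12.4 and 12.9 in DR cells, the latter with overlapping intervals. Il18r1, the ligand-binding chain, had its highest value in cells with both transcripts, at 217 and 339 CPM, against 133 and 229 with Cd27 only and 202 and 320 with Itgam only, the last with overlapping intervals.

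Counted over all genes, a difference was called at 1.5-fold or more with an interval that left out equality and a mean of at least 20 CPM. Of the 9 receptors above that mean in the control library, 2 were higher in cells with Cd27 only than with Itgam only (Il7r and Kit), where 4.87% of 5877 genes were, and 4 were lower (Il12rb2, Il18r1, Il18rap and Ifngr1), where 6.14% were. In the DR library 2 were higher, where 2.64% of 5831 genes were, and 3 were lower, where 4.30% were, Il18r1 staying inside the limit at a log2 ratio of -0.48. Without the cluster led by Batf3, Il18r1 and Ifngr1 were inside the limit in both libraries, at -0.22 and -0.09 and at -0.46 and -0.50. Il12rb2 and Il18rap stayed past it, where 4.46% of all genes were lower in the control and 2.65% in the DR library. Of the higher ones, where 4.39% and 1.67% of genes were called, Il7r stayed in both libraries and Kit in the control library, its mean falling under 20 CPM in the DR library. T cell markers differed along the same stages: the summed level of the 11 on the list was 550 and 541 CPM with Cd27 only and 256 and 225 with Itgam only, and in control cells Cd8b1 and Cd6 were at 0 in both. In DR cells Cd8b1 stood at 12.7 CPM with Cd27 only and 0.359 with Itgam only, and Cd3e at 4.55 and 1.08. Their part in the Il7r gradient was not tested. Stages are set by single UMIs, so deeper cells count more easily as holding both transcripts and shallower ones as holding neither. Median depths were 9151 and 7081 UMIs with Cd27 only and 8753 and 6616 with both. They were 6701 and 5029 with Itgam only and 5786 and 4634 with neither. Cells with neither also held B cell markers at a summed 255 and 1067 CPM.

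Il12rb1 had the lowest level of the 10 genes in NK-like cells of both libraries. It (chr8:70808449-70821424), shared by the receptors for interleukin-12 and interleukin-23, stood at 12.1 and 12.9 CPM in NK-like cells, 22.2 and 30.4 in ILC1-like cells and 2.35 in T-like cells. Il21r (chr7:125603429-125633570) was higher in B-like cells (73.5 and 84.3 CPM) and T-like cells (95.1) than in NK-like cells (31.9 and 30.5), which makes it the only one of the 10 genes with its lowest levels in NK-like stages in both libraries. Il12rb2 (chr6:67291318-67376188) overlaps Serbp1 on the opposite strand, and whether counting used strand is not given in the sources used here.

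ILC1-like cells held more Il7r and Kit and less Il12rb2 and Il18rap than NK-like cells. Il7r was higher by log2 ratios of 5.31 and 4.42, Kit by 1.79 and 2.15, and Il2rb by 0.37 and 0.42, the last inside the 1.5-fold limit. Il12rb2 was lower, at 41.4 and 34.2 CPM against 83.1 and 56.7 in NK-like cells, as was Il18rap, at 205 and 201 against 332 and 333. In the control library 3 of the 9 measured receptors were higher, where 7.63% of all genes were, and 2 lower, where 5.90% were. In the DR library 3 of 10 were higher, where 6.39% were, and 2 lower, where 4.70% were. Il18r1 was past the limit in the control library only, at 311 against 190 CPM, since NK-like cells of the DR library stood at 290 CPM against 266 in ILC1-like cells. Compared with NK-like cells with Cd27 only, ILC1-like cells held 13.6-fold and 9.64-fold more Il7r but 1.36-fold and 1.84-fold more Kit. T cell transcripts were present in part: Cd3e stood at 1.17 CPM in control and 21.7 in DR ILC1-like cells, against 602 in T-like cells, and their part in these levels was not tested.

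Between the libraries, 4 of the 9 receptors measured in NK-like cells were past a limit of 25% higher or 20% lower, Il7r and Il18r1 higher and Kit and Il12rb2 lower in the DR library. Of all 5857 genes measured, 3.06% were called higher and 8.35% lower; with median-of-ratios scaling, which moved the median log2 ratio of all genes from -0.065 to 0.00, the split was 5.26% and 4.59% and the same count of 4 receptors was called. The median log2 ratio of the 9 receptors was 0.0033, beside -0.065 for all genes.

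Kit was lower in NK-like cells of the DR library. NK-like cells held 44.3 CPM (42.2 to 46.4) in the control and 26.0 (24.1 to 28.0) in the DR library, a log2 ratio of -0.77 (-0.90 to -0.64). The DR value was below the control value in all 4 stages, by 0.84, 1.23, 1.89 and 1.05 on the log2 scale for Cd27 only, both, Itgam only (with a mean under 20 CPM) and neither. It was also below in all 9 NK-like clusters with at least 50 cells per library, with log2 ratios from -2.56 to -0.39. In the clusters led by Spp1 and by Hist1h1b the interval of the ratio included 0, at -0.60 (-1.49 to 0.21) and -0.39 (-1.18 to 0.34), and in 2 others the mean was under 20 CPM. The step was deepest in a cluster led by Cmah and Gprin3, which had Kit among its leading genes too, from 105 CPM (94.0 to 116) to 17.7 (10.7 to 27.7), and in the cluster led by Batf3 the log2 ratio was -0.49. In ILC1-like cells Kit was lower as well, at -0.41 (-0.62 to -0.20), a comparison in which 10.1% of 6028 genes were called lower and 4.20% higher.

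Il18r1 was higher in every NK-like stage of the DR library, while its partner chain stayed within 20% lower to 25% higher in each. NK-like cells held 190 CPM (186 to 195) in control and 290 (284 to 297) in DR cells, a log2 ratio of 0.61 (0.56 to 0.66). By stage the log2 ratio was 0.79 with Cd27 only, 0.65 with both, 0.66 with Itgam only and 0.63 with neither. Over the 9 clusters the ratio was above 0 in 6 and below it in 3, from -0.70 to 0.94. Il18rap stood at 332 (326 to 338) and 333 (326 to 340) CPM, a log2 ratio of 0.00 (-0.04 to 0.04). As a ratio of the chains, chosen after these values were seen, NK-like cells held 57.3 (55.7 to 59.0) Il18r1 UMIs per 100 Il18rap UMIs in the control library and 87.2 (84.6 to 89.9) in the DR library. That ratio was higher in the DR library in all 4 stages, from 65.3 to 108 with Cd27 only and from 49.4 to 75.5 with Itgam only. ILC1-like cells went the other way in value, from 152 (136 to 170) to 132 (119 to 147), with overlapping intervals, and their Il18r1 log2 ratio of -0.22 (-0.37 to -0.08) was inside the limit.

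Il7r was higher in DR NK-like cells, but unevenly. The level was 30.02 CPM (28.3 to 31.8) in control and 54.1 (51.4 to 56.9) in DR cells, a log2 ratio of 0.85 (0.74 to 0.96). By stage it was 0.46 with Cd27 only, 0.98 with both, 1.15 with Itgam only (mean under 20 CPM and near the B-like level in DR cells) and -0.25 with neither. DR cells were 20.4% with Cd27 only against 13.8% in control cells, and with the 4 stages in equal parts it was still past the limit. With the 9 clusters in equal parts, however, its log2 ratio was 0.21, inside the limit. The summed level of the T cell list was 341 and 347 CPM in NK-like cells, with 3 of its 11 genes at 20 CPM or more in each library and Cd8b1 and Cd6 at 0 in the control library. Cd3e stood at 0.21 and 2.89 CPM against 602 in T-like cells. B cell transcripts were more abundant in DR NK-like cells: the summed level of the 8 B cell markers was 124 and 365 CPM, that of the 4 plasma cell markers 66.5 and 140, and Igkc, an antibody light chain, stood at 22.4 and 467 CPM. With the 180 control and 319 DR cells that held UMIs of other lineages left out, the Il7r log2 ratio was 0.80 (0.68 to 0.92) and 4 receptors were called as before. In ILC1-like cells Il7r was nearly equal, at a log2 ratio of -0.04 (-0.11 to 0.03).

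Il12rb2 was lower in the DR library in every stage, with log2 ratios between -0.50 and -0.37. NK-like cells as a whole held 83.1 CPM (80.2 to 86.1) in control and 56.7 (53.9 to 59.6) in DR cells, a log2 ratio of -0.55 (-0.64 to -0.46). The other 5 measured receptors were inside the limit: Il2rb at 0.11, Il2rg at -0.19, Il21r at -0.06, Il18rap at 0.00 and Ifngr1 at 0.03. Il2rg was below the control value in all 4 stages (log2 ratios from -0.24 to -0.09) and all 9 clusters. In ILC1-like cells Il2rg was called lower, at -0.35 (-0.46 to -0.24), and with Kit made 2 of the 10 receptors measured there, with none higher. Of all genes measured in those cells, 10.1% were called lower and 4.20% higher.

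**Figure D4:**
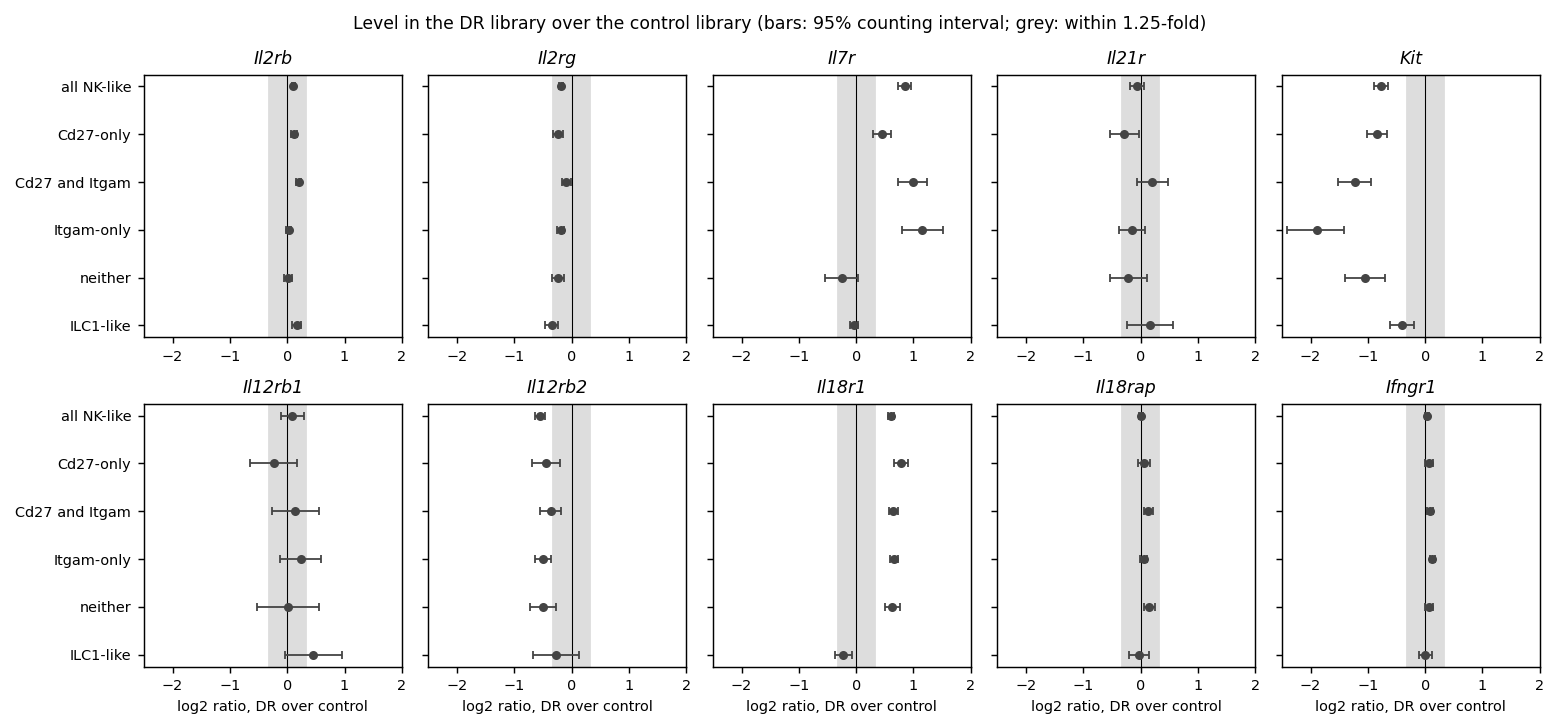
Log2 ratio of DR over control for each receptor gene in all NK-like cells, in the NK-like stages and in ILC1-like cells; points are ratios of summed levels, bars 95% intervals for counting error, and the grey band spans 20% lower to 25% higher. Il18r1 lies above and Kit and Il12rb2 below the band in NK-like cells, while Il2rb, Il18rap and Ifngr1 lie near 0.

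Genes that act with these receptors were read from lists. Among other receptors of the common gamma chain and related families, 2 of 5 were measured in NK-like cells: Il4ra, the interleukin-4 receptor chain, was higher in the DR library (19.4 to 27.4 CPM, log2 ratio 0.50) and Crlf2 was at 0.05. Of 33 other cytokine receptors, 7 were measured and none was past the limit (median log2 ratio -0.16); those farthest from 0 were Il27ra at -0.30, Il10ra at -0.28, Tgfbr2 at -0.26 and Il17ra at -0.16. Of 23 kinases and adaptors that act next to the receptors, 19 were measured and 18 were inside the limit, with a list median of -0.18; Stat6, the transcription factor of interleukin-4 signalling, was at -0.31, Pik3cd, a phosphoinositide 3-kinase subunit, at -0.27 and Irak4, a kinase of the interleukin-18 pathway, at -0.26. Of 14 feedback genes, 7 were measured and 1 was higher, Socs1, an inhibitor of Janus kinases (62.6 to 104 CPM, 0.73), with a list median of -0.12; Ptpn2, a phosphatase, was at -0.31. Of 12 ligand genes, Ifng alone was measured, at 61.4 and 51.5 CPM (-0.25). The median over all genes was -0.065, and 3.06% of them were called higher and 8.35% lower.

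Along the stages, with the cluster led by Batf3 kept in, Il4ra and Socs1 stood with Il7r and Kit. The genes of these lists were not read without that cluster. Il4ra was higher with Cd27 only than with Itgam only by log2 ratios of 1.02 and 1.26, and Socs1 by 1.28 and 1.10. Tyk2, a Janus kinase of the interleukin-12 receptor, ran with Il12rb2, lower with Cd27 only by 0.70 and 0.63 on the log2 scale. The genes past the limit on the higher side were Il4ra of 2 measured gamma chain relatives and, of 7 feedback genes, Socs1 and in control cells Sh2b3. On the lower side they were Tyk2 and in control cells Pik3r1, of 20 kinases and adaptors. Over all genes, 4.87% were higher and 6.14% lower in the control library, and 2.64% and 4.30% in the DR library. Among the other cytokine receptors Il27ra was past the limit in DR cells (0.63), while none of the 8 measured in control cells was.

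Across the 13 class and stage levels, 6 from the control and 7 from the DR library, the genes whose log2 levels ran closest to a receptor were ranked by Pearson correlation among 5894 genes, and the 5 closest to Kit, Il7r and Il2rb are given. These points share libraries and cells, so the values describe likeness only. For Kit they were Xcl1, a chemokine of NK cells (0.98), Cox5a, Cd160, Nrgn and Gm17745. For Il7r they were Prdx6 (0.96), Tesc, Klk8, Acyp1 and Znhit2, and for Il2rb they were Cln3 (0.99), Acot7, Ctsw, Apobr and Stat4.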

How the data were processed

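The deposited files hold raw UMI counts (whole numbers for each gene in each barcode) for 1 control and 1 DR library of sorted splenic NK cells made with the 10x Genomics 3' kit, per the labels' protocols. Cell Ranger wrote them, in version 5.0.1 per the file headers and 2.1.1 per the submitters' processing notes, which also name mm10; the conflict could not be settled. The authors' other steps are not given in the sources used here. The smallest barcode held 501 UMIs, so barcodes without cells were not analysed here.

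Barcodes under 500 genes or over 10% mitochondrial UMIs were dropped (215 control, 167 DR). Scrublet, in scanpy 1.11.5, called 0 doublets by its own threshold, so the top-scoring 4.43% and 5.95% of cells (0.8% per 1000 cells) were removed. Cells were scaled to 10000 UMIs and logged, and the 2000 most variable genes, less the 3 receptor genes among them, gave 30 components, 15 neighbours and 16 Leiden clusters at resolution 0.6. A cluster was named from a marker list when at least 50% and at least 3 of its markers reached 20 CPM and 25% of the highest cluster. Clusters that passed for several types, or were shallow without a marker among their leading genes, stayed unnamed. Names rebuilt in this way can differ from the study's own. Stages are at least 1 UMI of Cd27 and of Itgam.

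UMIs were summed per class and library, and levels are CPM with exact Poisson intervals. Shares have Clopper-Pearson intervals and ratios exact conditional binomial ones, all at 95% and for counting error only. A floor of 3 counts stands for a count of 0. Calls are by size: 25% higher or 20% lower between libraries and 1.5-fold between classes, with an interval that leaves out equality and a mean of at least 20 CPM. Scripts were tested on simulated data. Named were all 10 receptors, the up to 4 measured genes of each list farthest from 0 between the libraries, the genes called along the stages, chosen after their values were seen, and the 5 genes most like Il7r, Kit and Il2rb on log2(CPM + 1). A gene that this rule names is not reported here. The members and lists were chosen with earlier results of these data known.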

Additional observations from a re-analysis of the deposited data

Results flagged for a closer look

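Within the NK-like clusters the libraries differed in opposite directions for 3 receptors. The differences between clusters were not tested, since each library is 1 sample. The log2 ratio (DR over control) of Il7r was 1.46 in the cluster led by Ccr2 and Ctla2a (22.2 and 61.2 CPM) and -0.95 in the cluster led by Cmah and Gprin3 (36.2 and 18.7 CPM, the latter from 20 UMIs). Il18r1 stood at 0.94 in the cluster led by Ccl4 and Nr4a1 and at -0.70 in the proliferating cluster led by Hist1h1b. Il18rap stood at 0.41 in the cluster led by Cmah and Gprin3 and at -1.30 in the proliferating cluster. The 69 DR cells of the proliferating cluster carried transcripts of other lineages, with Igkc at 12305 CPM, Cd79a at 613 CPM and Cd8b1 at 127 CPM; their part in its values was not tested.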

How the results depend on the processing

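No paired analysis was possible because each group is 1 library, and no library could be left out. Of 15 alternatives, 14 called 4 of the measured receptors between the libraries, and 1 called 3: with clusters of at least 50 cells in equal parts, Il7r was inside the limit at 0.21 (range over the alternatives 0.21 to 1.05). That setting, chosen after seeing the data like those without the proliferating cluster or the cluster led by Batf3, turned Il2rb to -0.0058 and Ifngr1 to -0.0082. Kit (-1.28 to -0.70), Il18r1 (0.50 to 0.67) and Il12rb2 (-0.56 to -0.40) stayed past the limit in all 15. Leaving ribosomal and mitochondrial genes out of the total gave a split of 5.66% higher and 4.82% lower genes.

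For Cd27 only over Itgam only, log2 ratios for control and DR moved beyond their intervals as follows, with every direction kept unless stated. Without the cluster led by Batf3, Il2rb was at 0.077 and 0.21, Il7r at 2.89 and 2.37, Kit at 1.79 and 2.49, and Il21r turned, to -0.23 and -0.38. With stages set at 2 UMIs, Il7r was at 3.90 and 3.42, and in control cells Il2rb was at 0.25 and Kit at 3.02. Thinned to 3000 UMIs, control cells gave Il2rb 0.26, Il7r 2.46, Kit 2.12 and a turned Il12rb1 of -0.047, and DR cells a turned Il21r of -0.020. Single-cell gating gave Il2rb 0.26 and 0.36 and, in DR cells, Il7r 3.11. At 1000 genes per cell, control Il2rb was at 0.27.

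Against NK-like cells, thinning moved ILC1-like Il7r to 5.64 and 4.76, Kit to 2.16 and 2.70 and control Il2rb to 0.47; T-like Il7r to 3.82 and Il2rb to -3.47; and DR B-like Il2rb to -4.85. With doublets kept, Il2rb was at -2.93 and -2.75 in B-like and -2.15 in T-like cells, and DR ILC1-like Il7r at 4.30. Clustering with the receptor genes moved T-like Il7r to 3.37. The causes were not tested. Of the remaining values, 89 main and 217 single-gene ones stayed within their intervals and 53 single-gene ones moved without turning. Levels under 20 CPM, such as Il12rb1, rest on few UMIs per cell.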
